A study of Rattus norvegicus with 8 samples.

Results

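Chemokines are small secreted proteins that steer the movement of cells, and their receptors sit on the cells that respond. The genes described here are the 55 genes whose symbol names a chemokine or a chemokine receptor (the Ccl, Ccr, Cxcl, Cxcr, Ackr, Xcl and Xcr series with Cx3cl1, Cx3cr1, Ccrl2 and Pf4), out of 18166 genes tested. They comprise 35 ligands and 20 receptors, each read by 1 probe set. The values that follow compare the thoracic spinal cord of male Long Evans rats after thoracic spinal cord injury (SCI, 4 arrays) with that of rats after a sham operation, a laminectomy without injury (sham, 4 arrays). The rats were about 175 days old and weighed about 400 g, and from 4 weeks after surgery both groups ate the same high-fat diet (40% fat), so no comparison here concerns the diet. The labels give a total of 8 weeks without saying whether this covers the whole experiment or the feeding. Their tissue entry names thoracic segments 10 to 11 and their treatment protocol 11 to 12, and the lesion level is not stated.

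Messenger RNA was measured on Affymetrix Rat Gene 2.0 ST arrays, and all values are the deposited log2 RMA signals, on which a difference of 1 is a doubling. No label links an array to an identified rat (the design text speaks of 10), so that p-values measure only the spread between arrays, which may be technical. The median signal of an array was 3.73 to 3.81. On the first principal component the SCI arrays lay between 14.2 and 30.25 and the sham arrays between -25.27 and -19.62. Along the second component 3 arrays were negative, SCI 3 at -17.18, sham 1 at -12.62 and sham 2 at -12.8, and the remaining 5 were at 4.53 to 14.79. The count of members called, and those of the lists of genes around the chemokines, are also given without these 3 arrays. The remaining counts use all 8 arrays. Genes of neurons, oligodendrocytes and astrocytes had mean levels of at least 7.88 on every array. Hox genes of the spinal level averaged 5.16 to 5.36 on SCI arrays and 5.32 to 5.48 on sham arrays.

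Chemokines are classed by the spacing of their first cysteines into the CC, CXC, CX3C and XC families. Most receptors couple to inhibitory G proteins and drive migration, while atypical receptors bind chemokines without that coupling and remove or move them. In the nervous system neurons make Cx3cl1 and microglia carry its receptor Cx3cr1, and injury brings in blood leukocytes that carry other receptors such as Ccr2. Cxcl12 and its receptor Cxcr4 also guide precursor cells and vessels during development.

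Of the 55 genes, 11 were higher and 1 was lower in SCI than in sham cord at an adjusted p under 0.05 by limma. Over all genes tested, 7.10% were higher and 7.06% lower by the same rule, 14.2% together. The 11 were the ligands Cxcl14, Pf4, Ccl3, Cxcl16, Cxcl12, Ccl2 and Ccl4 and the receptors Cxcr4, Cxcr1, Ccr8 and Cx3cr1. The gene that fell was the ligand Ccl27. A further 43 genes did not pass the test. Without SCI 3, sham 1 and sham 2 the test called 7 genes, all higher, against 3.10% of all genes higher and 4.66% in either direction. These 7 were Cxcl14, Ccl3, Ccl4, Cxcl16, Cxcr1 and Cxcr4, with Cxcl10 in addition, while Pf4, Cxcl12, Ccl2, Ccr8, Cx3cr1 and Ccl27 had adjusted p of 0.053 to 0.16.

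The differences of the 55 genes had a median of 0.22, where all genes had -0.01. They were above 0 in 45 of 55 members, and in 47.9% of all genes. In 12 members every SCI array lay above every sham array, as it did in 9.36% of all genes, and in 1 member every SCI array lay below, as in 10.9% of all genes. A rise of at least 2-fold was called in 6 members (Cxcl14, Pf4, Ccl3, Cxcl16, Cxcr4 and Cxcr1), and in 1.45% of all genes. Most members gave dim signals: 44 of 55 had a mean over the 8 arrays below 4.74, the median of all genes. Of these 44, 5 were called, against 5.20% of all genes below that median. Of the 11 brighter members 7 were called, against 23.1% of all genes at or above it. RMA compresses the differences of dim probe sets, so a small difference in a dim member is a weak statement about its messenger RNA. RNA came from whole tissue, in which a change in the number of cells of a type and a change in RNA per cell cannot be told apart.

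**Figure D1:**
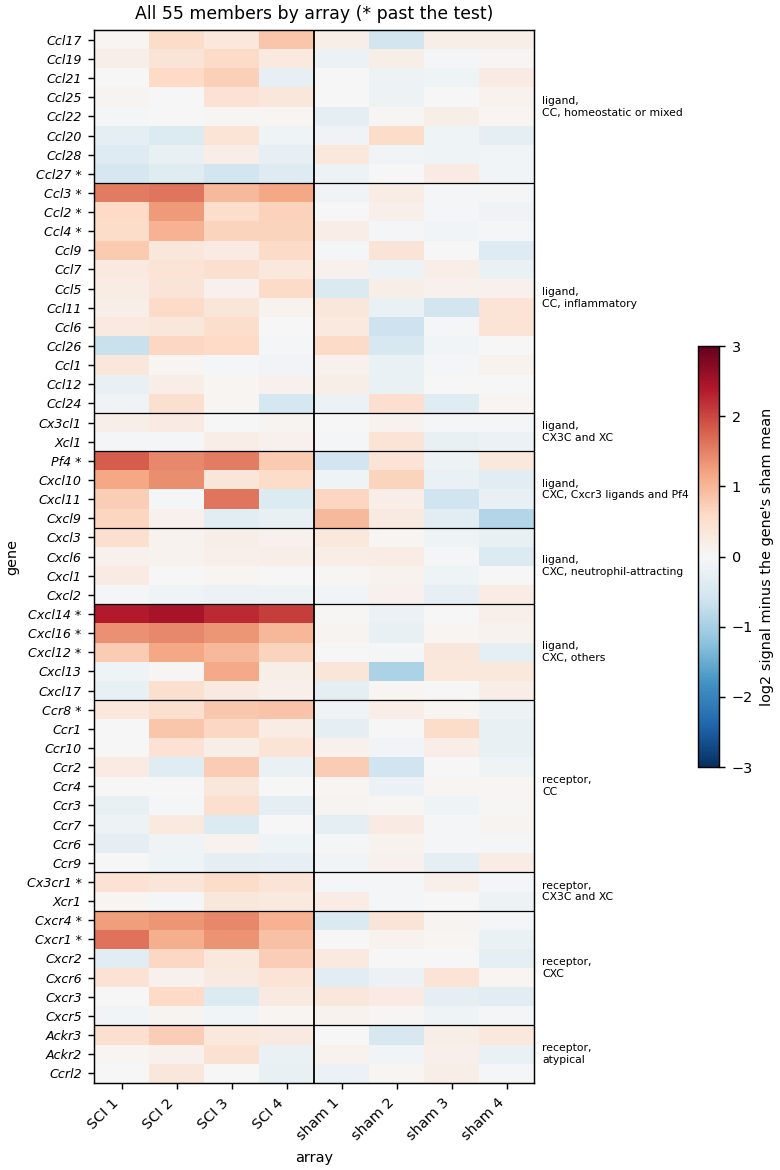
Log2 signal of each of the 55 genes on each of the 8 arrays, drawn as the difference from that gene's sham mean, with genes in rows grouped by role and arrays in columns. The strongest red on the 4 SCI arrays stands in the rows of Cxcl14, Cxcl16, Cxcr4, Cxcr1, Ccl3 and Pf4, and most other rows stay pale on both sides.

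The largest rise among the 55 genes was that of Cxcl14, a CXC chemokine made by epithelia and stromal cells whose receptor is still debated. Cxcl14 (probe set 17714320) had log2 signals of 8.76, 8.84, 8.61 and 8.45 on the SCI arrays, against 6.40, 6.20, 6.36 and 6.52 on the sham arrays. No sham array came near the lowest SCI array, and the means were 8.67 ± 0.17 in SCI and 6.37 ± 0.13 in sham (SD, n = 4 each). The rise was 4.91-fold, a log2 difference of 2.30 with an SE of 0.11 (95% interval 2.04 to 2.55, adjusted p = 2.3e-06). It ranked 16 among the rises of all 18166 genes.

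Cxcl16 is a chemokine made as a membrane protein that also acts as a scavenger receptor, and Cxcr6 on T cells is its receptor. Cxcl16 (probe set 17658124) read 7.43, 7.51, 7.39 and 7.06 in SCI, against 6.15, 5.85, 6.12 and 6.17 in sham. It rose 2.42-fold (log2 difference 1.28, SE 0.12, 95% interval 1.00 to 1.55, adjusted p = 1.2e-04). Cxcl12, which holds and attracts cells that carry Cxcr4 (probe set 17786463), read 6.42, 6.83, 6.64 and 6.33 in SCI, against 5.65, 5.63, 5.99 and 5.37 in sham. The rise was 1.86-fold, with a log2 difference of 0.89 (SE 0.15, adjusted p = 0.0032, and 0.079 without SCI 3, sham 1 and sham 2, where the difference was 0.85). The groups of Cxcl12 did not overlap, and the highest sham array, sham 3, lay nearest to SCI.

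The other CXC ligands of this group, Cxcl13 and Cxcl17, did not pass. Cxcl13 draws B cells into follicles, and its signals were 4.36, 4.54, 5.63 and 4.68 in SCI, against 4.86, 3.54, 4.81 and 4.81 in sham. SCI 3 was high and sham 2 low, and the groups overlapped (log2 difference 0.30, 95% interval -0.44 to 1.03, adjusted p = 0.65). Cxcl17, a chemokine of mucosal tissue, had a difference of 0.17 (SE 0.16).

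Pf4, platelet factor 4, is stored in platelets and is also made by macrophages. Pf4 (probe set 17693479) read 6.73, 6.36, 6.45 and 5.69 in SCI, against 4.33, 5.32, 4.76 and 5.23 in sham. Both groups were spread widely, with SDs of 0.44 and 0.46, but did not overlap. The rise was 2.63-fold (log2 difference 1.40, SE 0.25, adjusted p = 0.0048), and without SCI 3, sham 1 and sham 2 the difference was 1.26 (adjusted p = 0.059). Of 5 other platelet and megakaryocyte genes 0 passed (0 also at an unadjusted limma p under 0.05), among them the platelet chemokine Ppbp (0.22, SE 0.14) and the integrin chain Itga2b (0.18, SE 0.10). All 5 lay below the median level, where only 5.20% of all genes were called, and the part of platelets in the Pf4 signal was not tested. The mean level of these 5 genes was 3.27 to 3.71 on SCI arrays and 3.21 to 3.42 on sham arrays.

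The 3 ligands of Cxcr3 that interferon induces, Cxcl9, Cxcl10 and Cxcl11, did not pass. Cxcl10 came closest, with 6.15, 6.38, 5.35 and 5.53 in SCI, against 4.86, 5.65, 4.78 and 4.65 in sham. Sham 2 lay above SCI 3 and SCI 4, so the groups overlapped. The log2 difference was 0.87 (SE 0.26, 95% interval 0.29 to 1.45, adjusted p = 0.051), and it was 1.09 (adjusted p = 0.017) without sham 2. Leaving out SCI 3 (adjusted p = 0.033) or all 3 arrays of the second component (difference 1.31, adjusted p = 0.030) also brought it past the threshold. Leaving out any other single array did not (adjusted p of 0.052 to 0.14 by limma). With the second number of the sample titles as a covariate the difference was 0.69 (adjusted p = 0.23). Cxcl11 had 0.47 (SE 0.40), with SCI 3 at 5.26 and SCI 4 at 3.24, so its spread within SCI exceeded the difference. Cxcl9 had 0.05 (SE 0.35), and its highest array was sham 1 at 4.57.

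The neutrophil-attracting ligands, which act through Cxcr2, gave dim signals in both groups. Cxcl1, Cxcl2, Cxcl3 and Cxcl6 had log2 differences of 0.07, -0.13, 0.22 and 0.14, and 0 of 4 passed by limma (0 also at an unadjusted p under 0.05). All 4 lay below the median level, where only 5.20% of all genes were called. Their mean level was 2.53 to 2.70 on SCI arrays and 2.37 to 2.64 on sham arrays.

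Among the CC ligands, 3 of 12 inflammatory members rose and 9 did not pass, where 7.10% of all genes rose. Of the 12, 11 lay below the median level, where 5.20% of genes were called in either direction. Ccl3, or MIP-1 alpha, a product of activated macrophages and microglia (probe set 17659402), read 4.80, 4.85, 4.23 and 4.41 in SCI, against 3.14, 3.48, 3.19 and 3.19 in sham. It rose 2.50-fold (log2 difference 1.32, SE 0.15, adjusted p = 3.2e-04). Ccl4, or MIP-1 beta, its close relative (probe set 17649604), read 2.64, 3.14, 2.76 and 2.76 in SCI, against 2.29, 2.05, 2.02 and 2.03 in sham. Ccl4 rose 1.65-fold (0.73, SE 0.12, adjusted p = 0.0035) from a signal among the dimmest called here. Related chemokines can share probe signal, so the division of a rise between Ccl3 and Ccl4 is uncertain.

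Ccl2, or MCP-1, the main attractant of blood monocytes through Ccr2 (probe set 17649426), read 4.83, 5.50, 4.76 and 4.92 in SCI, against 4.21, 4.38, 4.19 and 4.13 in sham. SCI 2 was well above the other SCI arrays, and no sham array reached the lowest of them. The rise was 1.71-fold (log2 difference 0.77, SE 0.16, adjusted p = 0.0081), and 0.92 (adjusted p = 0.053) without SCI 3, sham 1 and sham 2. Ccl7, a second ligand of Ccr2, had non-overlapping groups with a small difference of 0.37 (SE 0.11, adjusted p = 0.053). It passed without sham 3 (0.44, adjusted p = 0.039) but without no other single array (adjusted p up to 0.14). Ccl12, a further ligand of Ccr2 in mice, had 0.05 (SE 0.12).

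Ccl9, a macrophage chemokine that binds Ccr1, had 0.49 (SE 0.17, adjusted p = 0.086, and 0.033 without sham 2). Leaving out any other single array did not bring Ccl9 past the test (adjusted p up to 0.21). Ccl5, or RANTES, which draws T cells, had 0.33 (SE 0.15, adjusted p = 0.20), with sham 1 at 3.35 below the other sham arrays. Ccl6, of macrophages, gave the brightest signals of this group of probe sets without passing, at 5.89, 5.94, 6.13 and 5.60 in SCI, against 5.90, 4.98, 5.54 and 6.00 in sham. The eosinophil attractants Ccl11, Ccl24 and Ccl26 had 0.31, -0.02 and 0.12, and Ccl1, the ligand of Ccr8, had 0.07.

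The 8 homeostatic or mixed CC ligands held the only member that fell. Ccl27, which in skin attracts T cells through Ccr10 (probe set 17806649), read 4.85, 4.99, 4.80 and 4.97 in SCI, against 5.21, 5.34, 5.60 and 5.28 in sham. The log2 difference was -0.46 (SE 0.11, adjusted p = 0.017), with no overlap. The call was lost with the second number of the sample titles, whose meaning is not given, as a covariate (-0.39, adjusted p = 0.10), with all probe sets in the fit (adjusted p = 0.056) and without SCI 3, sham 1 and sham 2 (-0.51, adjusted p = 0.087). The lymph node ligands of Ccr7, Ccl19 and Ccl21, had 0.36 (SE 0.12, adjusted p = 0.069) and 0.26 (SE 0.21, adjusted p = 0.47). Ccl17 and Ccl22, the ligands of Ccr4, had 0.44 and 0.02, Ccl25, of the gut and thymus, had 0.22, and Ccl20 and Ccl28, both of mucosal tissue, had -0.10 and -0.16.

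Cx3cl1, or fractalkine, is a membrane-bound chemokine of neurons, and its signals did not differ beyond the spread. They were 8.39, 8.45, 8.19 and 8.30 in SCI, against 8.19, 8.32, 8.18 and 8.16 in sham (log2 difference 0.12, 95% interval -0.09 to 0.33, adjusted p = 0.49). In the same tissue 14 of 15 neuron genes fell, with a median of -0.58, where 7.06% of all genes fell. What this means for Cx3cl1 was not tested. Xcl1, a lymphocyte chemokine, had 0.06 (SE 0.14).

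**Figure D2:**
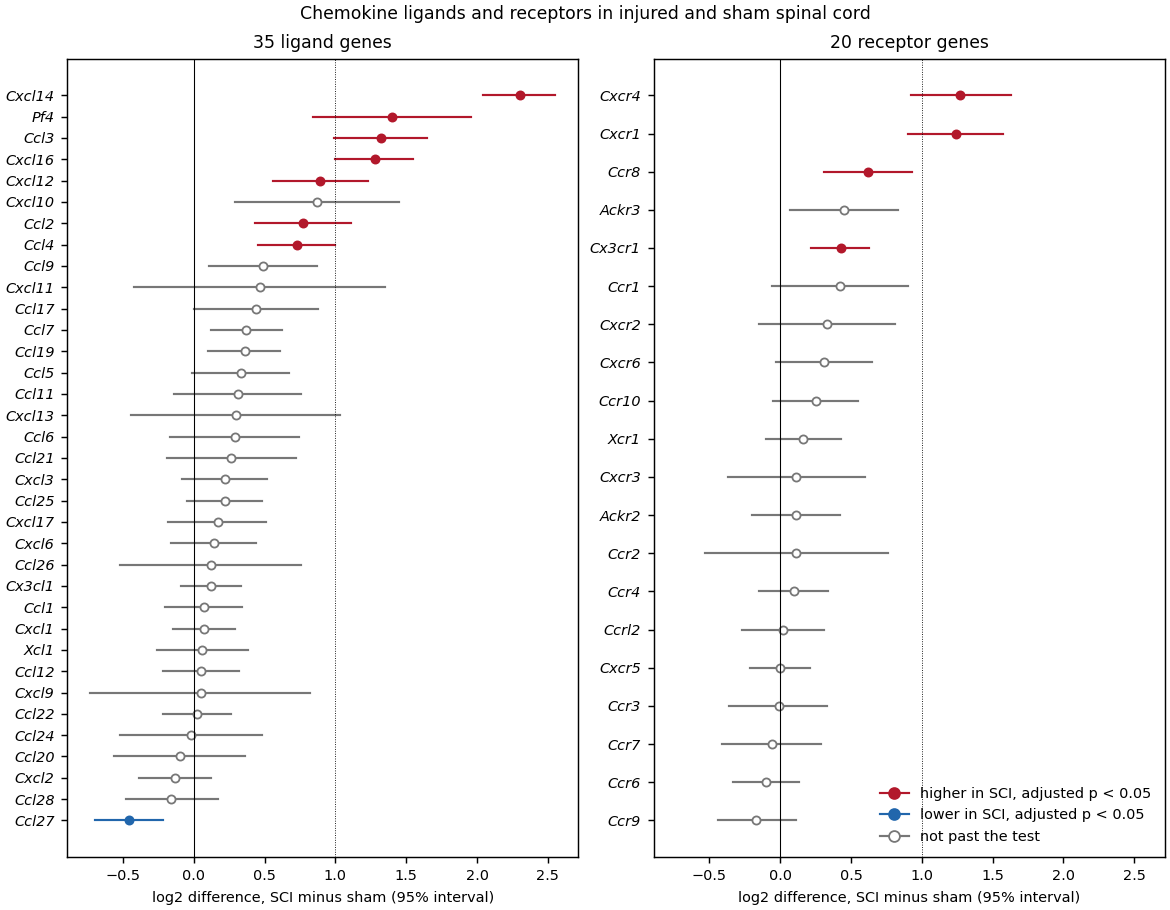
Log2 difference of each gene, SCI minus sham, with its 95% interval from limma, for ligands on the left and receptors on the right. The dotted line marks a 2-fold rise, and Cxcl14 at 2.30 lies to the right of every other member.

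Of the 20 receptors 4 rose and 0 fell, where 7.10% of all genes rose and 7.06% fell. Of the 20, 17 lay below the median level of all genes, where 5.20% of genes were called in either direction. Cxcr4, the receptor of Cxcl12 on leukocytes and precursor cells (probe set 17683912), read 5.54, 5.61, 5.72 and 5.33 in SCI, against 3.85, 4.66, 4.37 and 4.23 in sham. The SCI arrays lay close together, and sham 1 was the lowest of all. Cxcr4 rose 2.42-fold (log2 difference 1.27, SE 0.16, 95% interval 0.92 to 1.63, adjusted p = 6.3e-04).

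Cxcr1, a receptor for interleukin-8-type ligands on neutrophils and other myeloid cells (probe set 17865432), read 3.95, 3.42, 3.68 and 3.22 in SCI, against 2.33, 2.44, 2.40 and 2.14 in sham. It rose 2.36-fold (log2 difference 1.24, SE 0.15, adjusted p = 5.2e-04). Its relative Cxcr2 had 0.33 (SE 0.22, adjusted p = 0.39), with SCI 1 at 1.93 below every sham array, and passed without SCI 1 (0.55, adjusted p = 0.048). Leaving out any other single array did not bring Cxcr2 past the test (adjusted p up to 0.65). Of 10 neutrophil genes 2 were higher and 0 lower, where 14.2% of all genes were called in either direction. Mean levels of the list were 3.33 to 3.68 in SCI and 3.04 to 3.48 in sham. The 2 higher genes were the collagenase Mmp8 (1.43) and the growth factor receptor Csf3r (1.11), while the granule protease Prtn3 had -0.37. Their part in the rise of Cxcr1 was not tested.

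The other CXC receptors did not pass. Cxcr6, the receptor of Cxcl16, had 0.31 (SE 0.16, adjusted p = 0.24), Cxcr3, of activated T cells, had 0.11 (SE 0.22), and Cxcr5, of B cells, had 0.00 (SE 0.09, 95% interval -0.21 to 0.21).

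Cx3cr1, the fractalkine receptor of microglia and monocytes (probe set 17856549), was bright on every array, at 8.49, 8.43, 8.60 and 8.44 in SCI, against 7.99, 8.03, 8.21 and 8.03 in sham. The rise was the smallest of those called, 1.34-fold, with a log2 difference of 0.43 (SE 0.09, adjusted p = 0.012). Without SCI 3, sham 1 and sham 2 it was 0.33 (adjusted p = 0.16). Of 8 homeostatic microglia genes, 4 were higher and 0 lower by the test, where 7.10% of all genes were higher and 7.06% lower. The list had a median difference of 0.56, with 3 of the 8 below 0. Its mean levels were 6.88 to 7.03 in SCI and 6.35 to 6.68 in sham.

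Ccr8, a receptor of some T cells (probe set 17848872), read 2.52, 2.68, 3.00 and 3.06 in SCI, against 2.09, 2.39, 2.25 and 2.05 in sham. It rose 1.54-fold at a dim level (0.62, SE 0.14, adjusted p = 0.013). The call was lost without SCI 3, sham 1 and sham 2 (0.60, adjusted p = 0.11), and with all probe sets in the fit the adjusted p was 0.0504.

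Of 9 CC receptors, all 9 below the median level, only Ccr8 passed, where 5.20% of all genes below that level were called. Ccr2, which marks monocytes arriving from blood, read 4.13, 3.52, 4.63 and 3.69 in SCI, against 4.63, 3.29, 3.86 and 3.75 in sham. Its highest signals came from SCI 3 and sham 1, and the interval of the difference ran from -0.53 to 0.76 on the log2 scale. Ccr1, a receptor of Ccl3 on myeloid cells, had 0.42 (SE 0.22, adjusted p = 0.25). Ccr3, Ccr4, Ccr6, Ccr7, Ccr9 and Ccr10, mostly of eosinophils and lymphocytes, had differences between -0.17 and 0.25. Xcr1, of cross-presenting dendritic cells, had 0.16 (SE 0.12).

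The atypical receptors did not pass either. Ackr3, which takes up Cxcl12 and Cxcl11, read 5.78, 6.03, 5.61 and 5.56 in SCI, against 5.28, 4.82, 5.47 and 5.61 in sham. Sham 4 reached the level of the SCI arrays, and the difference was 0.45 (SE 0.17, 95% interval 0.07 to 0.83, adjusted p = 0.11). It had an adjusted p of 0.046 when only genes above the median level were tested. Ackr2, which degrades inflammatory CC ligands, had 0.11 (SE 0.14), and Ccrl2 had 0.02 (SE 0.13).

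**Figure D3:**
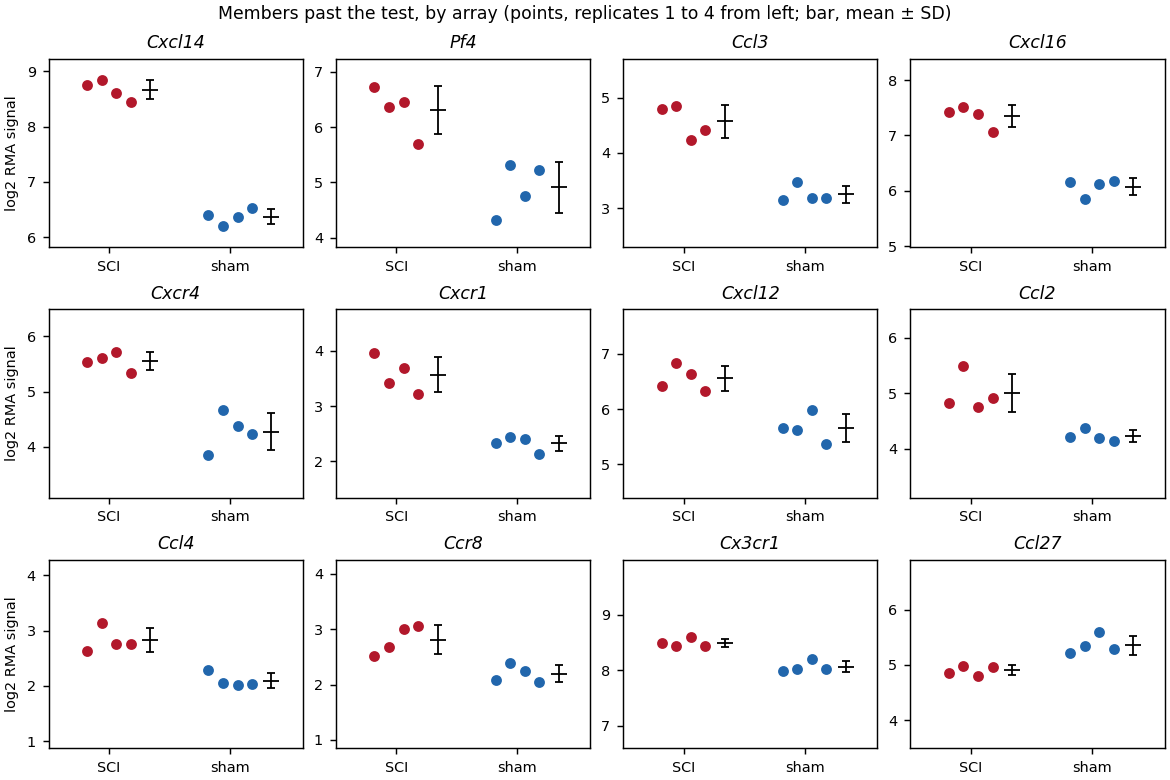
Log2 RMA signal on each array for the 12 genes past the test, SCI left of sham, with points for replicates 1 to 4 and a bar for the mean and SD. In each of the 11 genes that rose every SCI point lies above every sham point, and in Ccl27 every SCI point lies below.

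Ligands were set beside their receptors in 34 pairs of textbook knowledge, which join 30 of the ligands to 19 receptors and leave out Cxcr1, whose ligands were not listed. Both partners rose in 1 pair, Cxcl12 with Cxcr4 (log2 differences 0.89 and 1.27). The ligand alone passed upward in 5 pairs and the receptor alone in 2, and neither rose in 26. Cxcl16 stood at 1.28 beside Cxcr6 at 0.31, and Ccl2 at 0.77 beside Ccr2 at 0.11 and the scavenging Ackr2 at 0.11. Ccl3 stood at 1.32 beside Ccr1 at 0.42, and Cxcl12 beside Ackr3 at 0.45. The paired receptors that passed without their ligand were Cx3cr1 (0.43, beside Cx3cl1 at 0.12) and Ccr8 (0.62, beside Ccl1 at 0.07). Whether a ligand and its receptor differed in size of change was not tested.

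**Figure D4:**
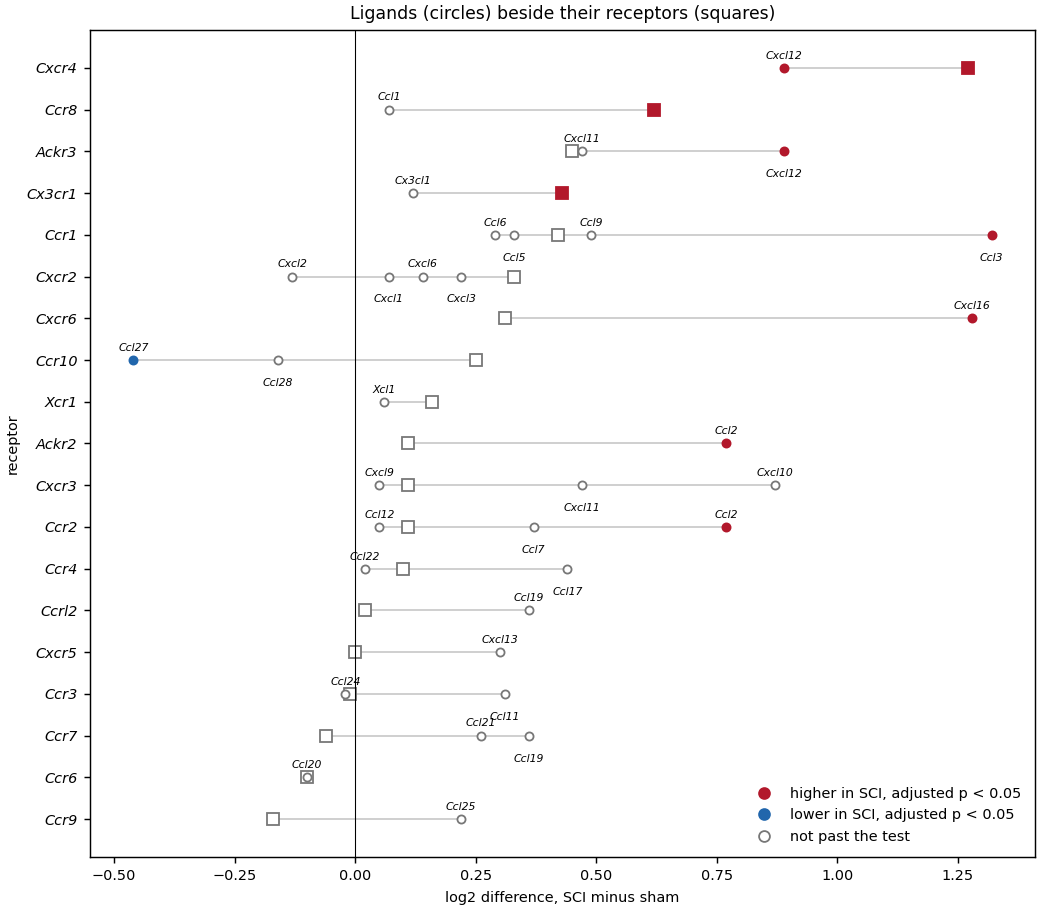
Log2 differences, SCI minus sham, of each receptor (square) and of its ligands (circles, named) on one line per receptor, filled red or blue where past the test. The top line shows the pair in which both were higher, Cxcl12 at 0.89 and Cxcr4 at 1.27, and several lines lower down show a filled ligand beside an open receptor.

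In the GRCr8 annotation 36 of the 55 genes lie within 500000 bases of another member, in 10 groups of neighbours, and 19 stand alone. The members of a neighbourhood did not pass the test together in most groups. Of Ccl2, Ccl7, Ccl11, Ccl12 and Ccl1, only Ccl2 was called, and of Ccl5, Ccl9, Ccl6, Ccl3 and Ccl4, the last 2 were called. Among Cxcl2, Cxcl1, Cxcl3, Pf4 and Cxcl6 only Pf4 was called. Ccr9, Cxcr6, Xcr1, Ccr1, Ccr3 and Ccr2 form a group of receptors in which 0 of 6 passed by limma (0 at an unadjusted p under 0.05). The neighbours Cx3cr1 and Ccr8 both rose. Cxcl14, Cxcl16, Cxcl12 and Cxcr4 have no other member nearby.

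The 250 bases before the annotated start were read from RefSeq's GRCr8 promoter table, which held 42 of the 55 genes, among them 6 of the 11 that rose. Ccl2, Ccl3, Ccl4, Pf4 and Ccr8, which also rose, were not searched. The 42 windows were searched for 4 motifs: the NF-kB motif (GGG, any 5 bases, CC), the AP-1 motif TGANTCA and the interferon element (GAAA, any 2 bases, GAAA) on both strands, and the TATA box TATAAA on the gene's strand. Shown here are the sequences of 4 genes that rose without a neighbour and of Cxcl10, which did not pass but holds all 4 motifs. They run 5′ to 3′ on the gene's strand, with motif letters in capitals. The windows are chr17:8322900-8323149, plus strand (Cxcl14), chr10:55669951-55670200, minus strand (Cxcl16), chr13:42634289-42634538, minus strand (Cxcr4), chr4:152060531-152060780, plus strand (Cxcl12) and chr14:15988816-15989065, plus strand (Cxcl10).
Cxcl14: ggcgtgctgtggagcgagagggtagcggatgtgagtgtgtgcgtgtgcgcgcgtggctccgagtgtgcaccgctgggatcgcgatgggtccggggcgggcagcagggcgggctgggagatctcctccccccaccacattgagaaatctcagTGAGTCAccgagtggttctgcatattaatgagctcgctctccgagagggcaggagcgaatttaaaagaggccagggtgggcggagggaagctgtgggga
Cxcl16: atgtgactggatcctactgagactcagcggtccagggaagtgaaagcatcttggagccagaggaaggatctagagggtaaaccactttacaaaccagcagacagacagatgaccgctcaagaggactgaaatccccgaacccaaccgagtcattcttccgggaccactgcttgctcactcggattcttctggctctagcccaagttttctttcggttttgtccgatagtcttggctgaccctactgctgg
Cxcr4: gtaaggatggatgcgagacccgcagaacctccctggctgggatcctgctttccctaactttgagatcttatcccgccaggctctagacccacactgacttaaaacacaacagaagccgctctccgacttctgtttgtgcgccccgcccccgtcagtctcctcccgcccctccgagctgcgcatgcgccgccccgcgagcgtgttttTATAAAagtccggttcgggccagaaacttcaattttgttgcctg
Cxcl12: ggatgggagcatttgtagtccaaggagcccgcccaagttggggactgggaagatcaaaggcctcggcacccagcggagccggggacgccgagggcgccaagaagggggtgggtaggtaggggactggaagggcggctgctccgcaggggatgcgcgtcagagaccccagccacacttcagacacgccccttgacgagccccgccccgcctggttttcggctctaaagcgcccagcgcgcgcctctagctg
Cxcl10: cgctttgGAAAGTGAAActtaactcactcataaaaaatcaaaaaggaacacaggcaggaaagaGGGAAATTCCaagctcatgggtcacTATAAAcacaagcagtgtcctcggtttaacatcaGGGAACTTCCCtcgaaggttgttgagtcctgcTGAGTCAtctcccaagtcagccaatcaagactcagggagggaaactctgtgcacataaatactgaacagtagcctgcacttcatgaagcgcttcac

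Capitals mark an AP-1 motif that starts at base -99 in Cxcl14 and a TATA box at base -44 in Cxcr4, counted from the annotated start. In Cxcl16 and Cxcl12 none of the 4 motifs was found in this window. The Cxcl10 window holds an interferon element at base -243, 3 NF-kB matches, the first at base -187, a TATA box at base -162 and an AP-1 motif at base -96, and 9 of its bases lie in 2 matches. The NF-kB motif was found in 0 of the 6 searched genes that rose, in 21 of the 35 searched genes that did not pass and in 42.3% of all 33469 promoters of the table. The corresponding counts were 1 of 6, 6 of 35 and 6.34% for AP-1, 0 of 6, 2 of 35 and 3.41% for the interferon element, and 1 of 6, 9 of 35 and 8.06% for the TATA box. These are matches of letters in a short window and were not tested.

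Genes that act around the chemokines were counted from lists, most of whose members lie above the median level of all genes, where 23.1% of genes were called in either direction. Over all genes 7.10% were higher and 7.06% lower, and 4.66% were called in either direction without SCI 3, sham 1 and sham 2. Of 37 tested genes of chemokine receptor signalling, 20 were higher and 2 lower (median difference 0.46), and 15 were called without those 3 arrays. The smallest p-values were those of Pik3r5, a regulator of the G protein-linked PI3 kinase (1.46, SE 0.11, adjusted p = 3.2e-05), the actin bundler Lcp1 (1.17, SE 0.10) and the leukocyte integrin chain Itgb2 (1.56, SE 0.13). The GTPase Rac2 (0.99, SE 0.13) and its activator Dock2 (0.91, SE 0.12), both of blood cells, also rose, while the arrestin Arrb2 had 0.15 (SE 0.10, adjusted p = 0.41). The 2 that fell, named after their values were seen, were Elmo1 (-0.52, SE 0.09), a partner of Dock proteins, and Rgs2 (-0.55, SE 0.15), which damps G protein signals.

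Of 32 tested genes upstream of chemokine transcription, 13 were higher and 0 lower (median 0.37). The interferon factors Irf8 and Irf7 rose by 0.85 (SE 0.11) and 1.07 (SE 0.15) and the adaptor Myd88 by 0.67 (SE 0.10). Irf1 was higher as well (0.49, SE 0.13, adjusted p = 0.032), and the NF-kB inhibitor and target Nfkbia had 0.44 (SE 0.17, adjusted p = 0.12). The count was 6 with the second title number as covariate and 8 without SCI 3, sham 1 and sham 2.

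Enzymes and matrix partners that cut, shed or hold chemokines had 13 of 26 tested members higher and 0 lower (median 0.50, and 7 called without SCI 3, sham 1 and sham 2). The macrophage elastase Mmp12 rose by 2.60 (SE 0.18), and the cathepsins Ctsk and Ctsb by 2.73 (SE 0.21) and 1.48 (SE 0.11). Adam17, a sheddase of membrane-bound chemokines, had 0.31 (SE 0.10, adjusted p = 0.069). Of 18 tested ligands and receptors of chemokine-like systems, 10 were higher and 0 lower, and 6 were called without those 3 arrays. The smallest p-values in this list were those of the chemerin receptor Cmklr1 (1.5, SE 0.15), Csf1r (0.93, SE 0.10), the growth factor receptor of macrophages and microglia, and the complement receptor C3ar1 (1.45, SE 0.16).

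Markers of cell types were counted in the same samples, beside 14.2% of all genes called. Of 12 genes that mark macrophages and myeloid cells in general, 11 rose, and the mean level of the list was 6.98 to 7.41 in SCI, against 5.50 to 5.76 in sham. Fibroblast and meningeal genes were higher in 7 of 10, at 7.17 to 7.72 in SCI and 6.47 to 6.78 in sham. Among 15 genes of T and NK cells 4 were higher, at 3.40 to 3.50 in SCI and 2.99 to 3.08 in sham. They were Cd8b (2.58), Cd8a (1.48), Cd4 (0.95) and Cd3g (0.49), and in rats Cd4 and Cd8a are also known from macrophages. The other 11 did not pass, 4 of the 15 were below 0, and the median difference was 0.15. Among those that did not pass, named after their values were seen, were Cd3d (0.18), Cd3e (0.13), Cd2 (-0.10) and Lck (-0.10). Shares near that of all genes were called among monocyte genes (1 of 7, Fn1, 0.85) and dendritic cell genes (1 of 7, Itgax, 1.56). B and plasma cell genes passed in 0 of 6 (1 at an unadjusted limma p under 0.05). Endothelial genes passed in 1 of 8 (Cdh5, 0.68), also near the share of all genes, and red blood cell genes in 0 of 3 (0 at an unadjusted limma p under 0.05). Schwann cell genes were higher in 3 of 7 (at 6.01 to 6.38 in SCI and 5.47 to 5.75 in sham), astrocyte genes were higher in 2 and lower in 1 of 8, and oligodendrocyte genes were lower in 6 of 8. RMA signals have no zero, so no marker can be called absent. These lists and those of genes around the chemokines overlap (Cd74, Csf1r, Elane, Mmp8, P2ry12, Ppbp, S100a8 and S100a9 stand in 2 each), and the part of these lists in the chemokine values was not tested.

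The SCI arrays differed among themselves, which may be technical. Of the 11 genes that rose, SCI 4 gave the lowest SCI signal in 6 and SCI 2 the highest in 6. The mean over all 55 members was 3.93, 4.06, 4.06 and 3.89 on SCI arrays 1 to 4, against 3.68, 3.64, 3.62 and 3.60 on the sham arrays. Macrophage genes averaged 7.13, 7.41, 7.18 and 6.98 on the SCI arrays, and fibroblast genes 7.36, 7.72, 7.34 and 7.17. In these lists too SCI 2 was highest and SCI 4 lowest. The homeostatic microglia, neutrophil and T and NK cell lists were instead highest on SCI 3, at 7.03, 3.68 and 3.50. Their lowest SCI array was again SCI 4, at 6.88, 3.33 and 3.40. The neuron and oligodendrocyte lists had the reverse order, lowest on SCI 2 (7.88 and 9.23) and highest on SCI 4 (8.23 and 9.43). Other lists differed, such as the dendritic cell list, which was lowest on SCI 1 (4.27). On the first principal component of all genes SCI 2 was also highest (30.25) and SCI 4 lowest (14.2). The share of all genes with this order was not counted. With 4 arrays a group no correlation was computed.

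**Figure D5:**
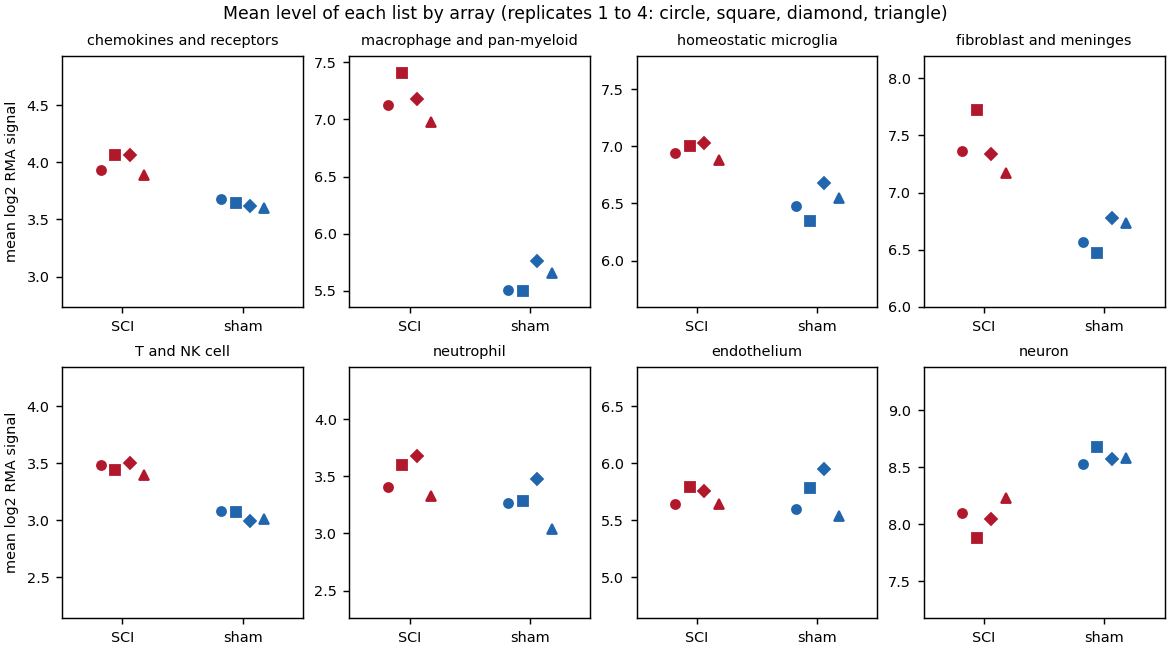
Mean log2 RMA signal of the 55 members and of 7 cell type marker lists on each array, SCI left of sham, with one symbol per replicate. SCI lies above sham without overlap for the members (3.89 to 4.06 against 3.60 to 3.68). The same holds for the macrophage, homeostatic microglia, fibroblast, and T and NK cell lists, though in the last 11 of 15 genes did not pass the test. In the neuron list SCI lies below sham without overlap, and the groups overlap for the neutrophil and endothelial lists.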

How the data were processed

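Each of the 8 arrays measured messenger RNA of 1 sample of thoracic cord. The deposited values are log2 signals, for which the submitters' processing notes name Affymetrix Expression Console and RMA. Versions, settings and genome build are not stated there. That the base is 2 follows from RMA and the values' range. Of 36685 probe sets, 18511 carried 1 symbol, 575 several and 17599 none here. For 291 genes with more than 1 probe set the one with the highest mean was used, which left 18166 genes. The 55 members had 1 probe set each and all matched the GRCr8 RefSeq table by gene ID.

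The test of SCI against sham used limma 3.58.1 (R 4.3.3, lmFit then eBayes) without covariates, with Benjamini-Hochberg adjustment over all 18166 genes, and called at an adjusted p under 0.05. Every p is from this two-sided test, which was checked on simulated data. The alternatives were array centring, quantile normalization, a filter on dim genes, other probe set choices, trend and robust eBayes, array weights, the second number in the sample titles as covariate, and leaving out arrays. Replicates were numbered in sample order and pair no samples. Members, lists and alternatives were chosen with earlier results of these data known. Any member could be named. From other lists the 3 genes with the smallest p and a fixed set were named, and any other gene was chosen after its values were seen, among them Elmo1 and Rgs2. Some genes share probe signal with relatives. The number of arrays limits the precision.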

Additional observations from a re-analysis of the deposited data

Results flagged for a closer look

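In a group of 4 arrays, a value was picked out when its gap to the nearest other value made up a share of the group's range above Dixon's 95% critical value. Of 110 groups (55 members in SCI and in sham) 9 had such a value, 8.18%, where all genes had 5.63% and chance gives about 1 in 20. The sham array 2 had 5 of them. It was lowest in Ccl17 (2.86, other sham arrays 3.57 to 3.58), Cxcl13 (3.54, others 4.81 to 4.86), Cxcl16 (5.85, others 6.12 to 6.17) and Ccr4 (2.73, others 2.95 to 2.97), and highest in Ccl3 (3.48, others 3.14 to 3.19). Sham 1 was highest in Ccl28 (3.11, others 2.66 to 2.70) and Ccl4 (2.29, others 2.02 to 2.05) and lowest in Ccl5 (3.35, others 3.90 to 3.95). SCI 3 was highest in Ccr4 (3.25, other SCI arrays 2.90 to 2.91). All 9 values came from SCI 3, sham 1 and sham 2, the arrays that were negative on the second principal component. How such values divide between the arrays over all genes was not counted. Of these genes, Ccl3, Ccl4 and Cxcl16 kept their calls without the 3 arrays.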

How the results depend on the processing

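Of the 12 called members, 6 (Cxcl14, Cxcl16, Cxcr4, Cxcr1, Ccl3 and Ccl4) were called in each of up to 17 alternative fits in which they had a value, and no called member changed sign in any of them. Members called numbered 7 without SCI 3, sham 1 and sham 2 together (7 higher, 0 lower, 2 of them receptors) and 6 when a change of at least 2-fold was also asked (6 higher, 4 of them ligands and 2 receptors, 0 lower). Leaving out 1 array gave 12 to 14. The lower call of Ccl27 was also lost, leaving 0, with all probe sets in the fit and with the second title number as covariate. Ccl5 passed with that covariate (0.55, adjusted p = 0.045), Ccl9 with array weights (0.56, adjusted p = 0.0496), and Cxcl10 in 6 fits. The fit on brighter genes alone left 11 members with a value. The cause of these shifts was not tested. Over all genes, calls numbered 1441 (802 higher, 639 lower) with all probe sets in the fit, where p-values are adjusted over more tests. They numbered 1356 (813 and 543) with the covariate, 847 (563 and 284) without the 3 arrays, and 290 (263 and 27) with the 2-fold rule. Without 1 array they numbered 1703 to 2540, of which 780 to 1283 lower, with the fewest without SCI 2, and 838 lower without sham 4. Genes upstream of chemokine transcription were called in 6 with the covariate and 8 without the 3 arrays, enzymes and matrix partners in 7 and chemokine-like systems in 6 without them. No paired analysis was possible because the labels give no replicate number shared between the groups. Dim signals limit most of the genes that did not pass.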
